A study of Homo sapiens with 12 samples.

Results

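The tubulin polyglutamylase complex was examined through the transcripts of its 5 long-known subunits, TPGS1, TPGS2, TTLL1, LRRC49 and NICN1, among the 20345 gene rows measured in HGC-27, a cell line from a human gastric cancer. The members were taken as the rows whose Ensembl identifiers map to these 5 symbols. TPGS1 was chosen by its value, since earlier results of these data placed it among the genes with the largest rise in untreated cells labelled TEAD4KO, whereas the other 4 were chosen as subunits of the same enzyme. All 5 had a row, and 4 of the 5 passed a filter that kept the 11225 rows whose mean over all libraries reached 1 FPKM. TTLL1, the catalytic subunit, had a mean of 0.980 FPKM and fell just outside that filter, whereas NICN1 had a mean of 1.34 FPKM and fell just inside it. FPKM counts sequenced fragments relative to transcript length and to the size of the library, so it allows levels to be compared between genes of different length.

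RNA was sequenced in 12 libraries that form 4 groups of 3. HGC-27 cells with no stated edit (WT) were sequenced untreated (replicates 1, 2 and 3) and after the GLUP peptide (replicates 14, 15 and 16), and cells of genotype TEAD4KO were sequenced untreated and after GLUP under the same numbers. TEAD4 binds DNA at the end of the Hippo pathway and recruits the co-activators YAP and TAZ, and GLUP is a synthetic peptide built to bind TEAD4 and to link its molecules. According to the methods for RNA sequencing, control HGC-27 cells received the buffer of the peptide, and TEAD4KO cells are not named there. How the TEAD4KO cells were made, and whether they are 1 clone, is not given in the sources used here, whereas the methods speak of biological replicates without saying whether these were separate cultures, so the p-values measure the spread between these libraries.

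Polyglutamylation adds chains of glutamate to the tails of tubulin, mainly on the microtubules of cilia, centrioles, the mitotic spindle and neurons. The chains change how severing enzymes, motors and other proteins act on the microtubule, and deglutamylases of the CCP family (AGTPBP1 and AGBL genes) trim them. Most enzymes of the tubulin tyrosine ligase-like (TTLL) family that add glutamate work alone, but TTLL1 is active as part of a complex, with TPGS1, TPGS2, LRRC49 and NICN1 as non-catalytic subunits that assemble, place or stabilise it. TPGS1 is known from the mouse as the gene whose loss lowers tubulin polyglutamylation in neurons and disturbs the sperm tail.

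TPGS1 (ENSG00000141933) lies on chromosome 19 from 507497 to 519654 on the plus strand of GRCh37. TPGS2 (ENSG00000134779) lies on chromosome 18 from 34357610 to 34409179 on the minus strand. TTLL1 (ENSG00000100271) lies on chromosome 22 from 43435522 to 43485425 on the minus strand, and LRRC49 (ENSG00000137821) on chromosome 15 from 71145578 to 71345997 on the plus strand. NICN1 (ENSG00000145029) lies on chromosome 3 from 49459766 to 49466759 on the minus strand. All 5 are protein-coding, and each overlaps another annotated gene, for example LARP6 on the other strand of LRRC49 and AMT on the same strand as NICN1. NICN1 also shares 6982 bases, almost its whole length, with the protein-coding ENSG00000283189 on the same strand, which has no row. The sources used here do not say whether the counting used strand, so reads in these overlaps may belong to either gene.

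The stretches of 250 bases before the annotated starts of TPGS1 and TPGS2 are shown, as the subunit whose level differed between the cell lines and a partner subunit whose level did not pass the test. They come from RefSeq on GRCh38.p14 (chr19:507247-507496, plus strand, and chr18:36829003-36829252, minus strand), and 4 of the 5 members had a promoter entry. Capitals mark matches, on either strand, to the core of the TEAD motif (GGAATG), the core of the YY1 motif (AAGATGG) and the CCAAT box. The 3 motifs do not overlap each other in these windows.
TPGS1: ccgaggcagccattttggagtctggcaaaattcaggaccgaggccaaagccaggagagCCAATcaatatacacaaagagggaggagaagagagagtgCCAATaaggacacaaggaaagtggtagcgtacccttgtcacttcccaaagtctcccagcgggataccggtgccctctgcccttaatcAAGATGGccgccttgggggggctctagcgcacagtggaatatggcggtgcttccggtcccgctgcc
TPGS2: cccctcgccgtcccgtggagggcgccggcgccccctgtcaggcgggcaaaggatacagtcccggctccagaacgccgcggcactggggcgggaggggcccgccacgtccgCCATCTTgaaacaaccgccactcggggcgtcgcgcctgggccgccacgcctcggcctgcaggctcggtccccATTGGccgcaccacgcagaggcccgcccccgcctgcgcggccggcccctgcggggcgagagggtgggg
The TPGS1 window holds 2 CCAAT boxes and 1 YY1 core, and the TPGS2 window holds 1 of each. Neither holds the TEAD core, which 11.9% of 35116 windows of this length hold. The YY1 core is held by 3.70% and the CCAAT box by 32.0% of these windows. The TPGS1 window is 56.4% G and C with 10 CpG, and the TPGS2 window is 78.0% G and C with 33 CpG, against a median of 58.0% over all windows. The windows of TTLL1 and LRRC49 hold neither the TEAD core nor the YY1 core. A match is a description of letters and not a bound site.

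The labels of the libraries were examined before the comparisons. The TEAD4 transcript was not lower in the libraries labelled TEAD4KO, where it ranged from 26.0 to 30.1 FPKM, against 22.9 to 25.8 FPKM in WT libraries, so every difference between the lines below rests on the label. TEAD4 was higher by 0.17 on the log2 scale untreated (limma adjusted p = 0.135). With GLUP it was higher by 0.23 (adjusted p = 0.0479), a call kept in 4 of 12 fits without 1 library. After the correction for GC content and length described below, the values were 0.0081 and 0.11 (limma adjusted p = 0.955 and 0.271). Of the epithelial markers, EPCAM, KRT18 and KRT19 were near 0 in every library and CLDN4 was between 0.334 and 0.764 FPKM. KRT8 was between 3.78 and 9.13 FPKM and CDH1 between 2.04 and 3.68 FPKM. Of the mesenchymal markers, VIM was between 1238 and 1704 FPKM, ZEB1 between 15.9 and 23.3 FPKM and CDH2 between 0.033 and 0.15 FPKM. CD3E and HBB of blood and CDH5 of endothelium were at 0. PTPRC (0.110 to 0.276 FPKM) and CD68 (0.0618 to 0.433 FPKM) of blood and VWF (0 to 0.0439 FPKM) of endothelium were low. The fibroblast and muscle marker COL1A1 was between 155 and 304 FPKM, PDGFRB between 0.82 and 1.27 FPKM and DES between 0.657 and 1.14 FPKM. The summed epithelial list of 6 genes was 10.3 to 12.8 FPKM in untreated TEAD4KO libraries and 9.06 to 10.1 FPKM in untreated WT libraries. With GLUP it was 7.94 to 9.78 and 6.82 to 8.25 FPKM. The FPKM total was 397321 to 423757 in TEAD4KO libraries and 375361 to 384477 in WT libraries, and the share of rows at 0 was 23.7% to 25.5% and 21.1% to 22.3%. As depth is unknown, no counting interval can be given.

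TPGS1 was near 10 FPKM in every WT library and near 20 FPKM in every library labelled TEAD4KO. In untreated WT cells it was at 9.60, 9.41 and 9.50 FPKM (mean 9.50 ± 0.0940, SD, n = 3), and with GLUP at 9.65, 10.6 and 8.76 FPKM (9.66 ± 0.915). In untreated TEAD4KO cells it was at 17.9, 21.8 and 21.8 FPKM (20.5 ± 2.24), and with GLUP at 19.9, 23.1 and 17.8 FPKM (20.3 ± 2.69). No TEAD4KO library (lowest 17.8 FPKM) reached down to a WT library (highest 10.6 FPKM), a separation of all 6 from all 6 upwards that 7.06% of the genes tested had. In the order of the group means, untreated WT and WT with GLUP overlapped, as did TEAD4KO with GLUP and untreated TEAD4KO, and the step between WT with GLUP and TEAD4KO with GLUP was the one without overlap.

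**Figure D1:**
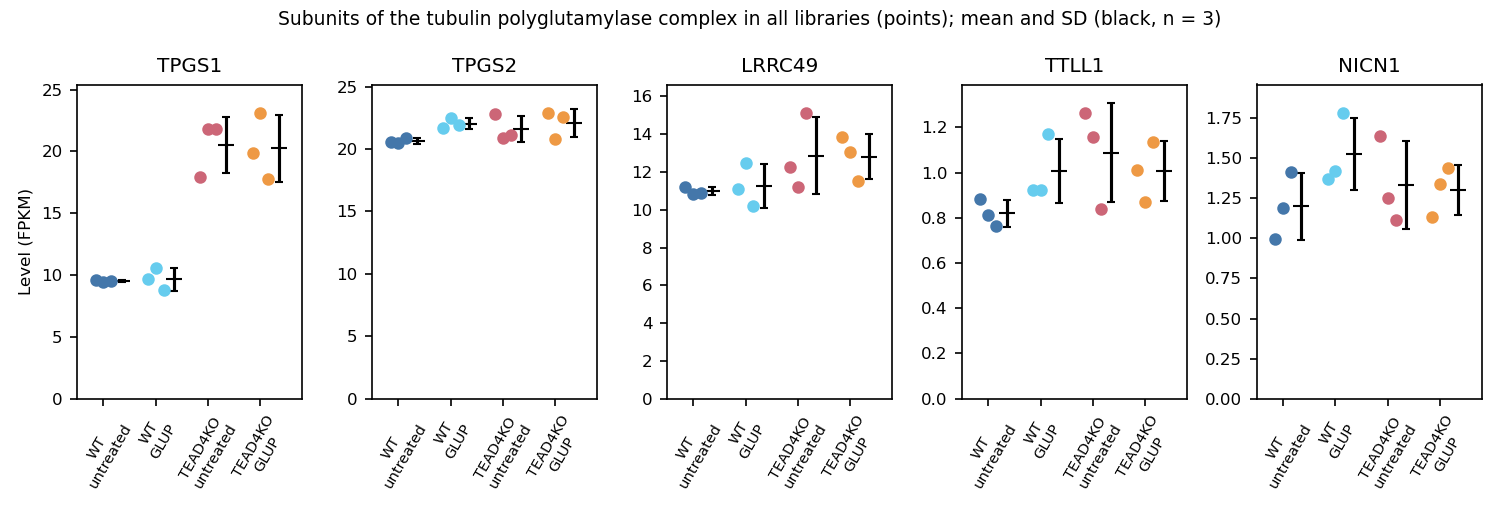
Level in FPKM (vertical axes, from 0) of the 5 subunits in the 12 libraries (coloured points, replicates from left to right in the order of their numbers), by group, with the mean and SD of 3 libraries in black. TPGS1 sits between 8.76 and 10.6 FPKM in WT and between 17.8 and 23.1 FPKM in libraries labelled TEAD4KO, while TPGS2 stays between 20.5 and 22.9 FPKM in all 12.

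In the untreated comparison, by which TPGS1 was chosen, its log2 fold change was 1.03 ± 0.10 (SE) on the log2(FPKM + 1) scale and ranked 5 from the top of the genes tested. This is a description with no test. Of the genes tested, 608 passed an adjusted p under 0.05 (limma, Benjamini-Hochberg), which is 5.42%, and 4 genes, 0.0356%, also had a fold change over 2. TPGS1 lay just inside that fold limit, with a fold of 2.04. The 6 libraries with GLUP took no part in the value by which TPGS1 was chosen, although the same cell lines were sequenced and earlier results were known. In these it differed by 0.99 ± 0.10 on the log2 scale (SE, n = 3 in each group, 95% confidence interval 0.77 to 1.21, limma adjusted p = 0.000427), higher in 3 of 3 libraries. The model held all 12 libraries, so the untreated ones also entered this SE, interval and p-value through the shared spread. The test is therefore not independent of the choice of TPGS1. TPGS1 was higher here too, as 1 of 656 genes called (5.84%, or 1064 genes with the replicate number as a block), and its fold of 1.99 lay just outside the fold limit that 6 genes (0.0535%) passed. Both folds were taken with 1 FPKM added, which makes them smaller. With 0.1 FPKM added instead, 10 genes untreated and 17 genes with GLUP were called and passed the fold limit. Over all alternatives the log2 fold change of TPGS1 with GLUP ranged from 0.52 to 1.08 and its adjusted p from 1.96e-05 to 0.0226.

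The size of the TPGS1 difference moved with a correction for base composition and length. The annotated TPGS1 transcript has 1114 bases in 2 exons and is 74.1% G and C, a higher share than 99.97% of the genes tested and near the upper end of their range (74.4%), and only 7.47% of the genes tested are shorter. Across 11077 genes with a known transcript, the TEAD4KO against WT difference in untreated cells followed transcript length with Spearman's rho of -0.520 and GC content with 0.300, and with GLUP these were -0.478 and 0.198. These are values across genes, which are no replicates, and only describe the libraries. With the trend of every library in GC content and length taken out, the TPGS1 log2 fold change was 0.48 ± 0.11 in untreated cells and 0.52 ± 0.11 with GLUP (SE, limma adjusted p = 0.0226 for the latter, 95% confidence interval 0.29 to 0.75). On the corrected scale the TPGS1 value was between 3.58 and 3.69 in untreated WT and between 3.90 and 4.29 in untreated TEAD4KO libraries. With GLUP it was between 3.57 and 3.78 in WT and between 4.08 and 4.41 in TEAD4KO libraries. TPGS1 moved from rank 5 to rank 58 of the untreated differences and from rank 9 to rank 63 with GLUP. Few genes with such a GC content guide the correction, and which part of the TPGS1 difference follows the composition of the libraries was not tested.

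**Figure D2:**
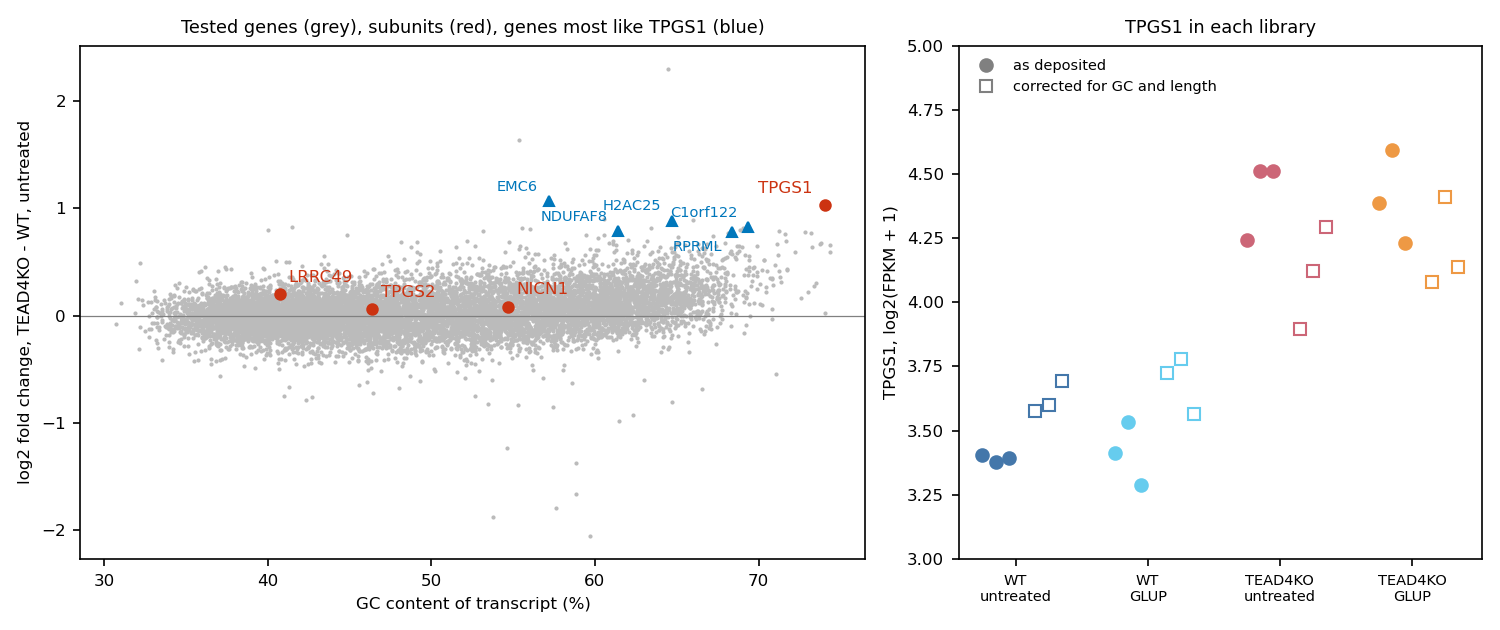
Left, log2 fold change of TEAD4KO against WT in untreated cells (vertical axis) against the GC content of the transcript (horizontal axis, percent) for the genes tested (grey), the 4 subunits tested (red circles) and the 5 genes most like TPGS1 (blue triangles). Right, log2(FPKM + 1) of TPGS1 in each library as deposited (filled circles) and after correction (open squares), on an axis that starts at 3. TPGS1 lies at 74.1% GC, and its groups come closer after the correction.

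The libraries labelled TEAD4KO differed among themselves. Untreated replicate 1 and GLUP replicate 16 had the lowest TPGS1 levels of the 6 (17.9 and 17.8 FPKM). The same libraries had the lowest FPKM totals of the 6 (397321 and 401426), and their Spearman's rho between the deviation from the gene means and transcript length was -0.090 and 0.16. The second of these lay within the range of the WT libraries (0.12 to 0.47), and the other 4 TEAD4KO libraries had values between -0.57 and -0.26. The level of TPGS1 did not follow this order among those 4. With GC content the same rho was 0.54 in untreated replicate 1 and 0.17 in GLUP replicate 16, against -0.16 to 0.22 in the other 4 and -0.33 to -0.055 in WT libraries. The part of these trends in the level of TPGS1 was not tested. Without both libraries, the lowest in TPGS1, its log2 fold change was 1.12 in untreated cells and 1.08 with GLUP, a rise that their removal fixes.

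TPGS2, another non-catalytic subunit, was nearly level across all libraries. It was at 20.6, 20.5 and 20.9 FPKM in untreated WT and at 22.8, 20.9 and 21.1 FPKM in untreated TEAD4KO cells. With GLUP it was at 21.7, 22.5 and 21.9 FPKM in WT and at 22.9, 20.8 and 22.6 FPKM in TEAD4KO cells. All 3 untreated TEAD4KO libraries lay above the 3 untreated WT libraries, although both groups come to 20.9 FPKM where they meet, a pattern that 18.3% of the genes tested had, and the groups overlapped with GLUP. The log2 fold changes were 0.061 ± 0.060 (95% confidence interval -0.069 to 0.19, limma adjusted p = 0.599) and 0.0027 ± 0.060 (-0.13 to 0.13, adjusted p = 0.982), so neither passed. A difference of the size seen for TPGS1 lies outside both intervals.

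The ratio of the 2 subunits therefore differed between the lines in the values as deposited. TPGS1 over TPGS2 was 0.460 ± 0.00624 (SD, n = 3) in untreated WT and 0.438 ± 0.0355 in WT with GLUP, and 0.954 ± 0.145 in untreated TEAD4KO and 0.922 ± 0.167 in TEAD4KO with GLUP. It ranged from 0.400 to 0.471 over the WT libraries and from 0.787 to 1.11 over the TEAD4KO libraries. As this ratio contains the value by which TPGS1 was chosen, it is a description. The ratios and shares were not corrected for GC content and length. On the corrected scale the log2 fold change of TEAD4KO against WT was 0.48 for TPGS1 and 0.084 for TPGS2 in untreated cells. With GLUP it was 0.52 and 0.062, so the ratio differs by less there. Of the summed FPKM of the 5 subunits, TPGS1 made up 20.0% to 22.2% in WT and 32.1% to 39.0% in TEAD4KO libraries. TPGS2 made up 46.9% to 50.0% and 35.2% to 41.5%, although its own level hardly moved. The ratio of TPGS2 over LRRC49, which does not contain TPGS1, had group means between 1.71 and 1.97.

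LRRC49, a leucine-rich repeat subunit, was the third most abundant transcript in TEAD4KO and the second in WT cells. It was at 11.2, 10.8 and 10.9 FPKM in untreated WT and at 12.3, 11.2 and 15.1 FPKM in untreated TEAD4KO cells. With GLUP it was at 11.1, 12.5 and 10.2 FPKM in WT and at 13.8, 13.1 and 11.5 FPKM in TEAD4KO cells. The TEAD4KO means (12.9 ± 2.03 and 12.8 ± 1.18 FPKM) were above the WT means (11.0 ± 0.212 and 11.3 ± 1.16 FPKM) in both conditions, and the libraries overlapped in both. The log2 fold changes were 0.20 ± 0.10 (-0.025 to 0.43, limma adjusted p = 0.286) untreated and 0.17 ± 0.10 (-0.054 to 0.40, adjusted p = 0.334) with GLUP, and did not pass. LRRC49 is rich in A and T, with 40.8% G and C over 6176 bases, and its corrected values were 0.27 and 0.26, also not past the threshold (limma adjusted p = 0.186 and 0.156).

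TTLL1, which carries the catalytic site, was the least abundant subunit. It was at 0.883, 0.815 and 0.765 FPKM in untreated WT and at 0.924, 0.925 and 1.17 FPKM in WT with GLUP. Untreated TEAD4KO cells had 1.26, 1.16 and 0.841 FPKM, and those with GLUP had 1.01, 0.869 and 1.13 FPKM. The TEAD4KO libraries overlapped the WT libraries in both conditions. With no filter on low values its log2 fold change of TEAD4KO against WT was 0.19 untreated (limma adjusted p = 0.327) and -0.00036 with GLUP (adjusted p = 1), on a scale where the added 1 FPKM is as large as the level and understates the change.

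NICN1, which encodes the small non-catalytic subunit nicolin 1, was at 0.998, 1.19 and 1.41 FPKM in untreated WT and at 1.37, 1.42 and 1.78 FPKM in WT with GLUP. Untreated TEAD4KO cells had 1.64, 1.25 and 1.11 FPKM, and those with GLUP had 1.13, 1.34 and 1.44 FPKM. The libraries of the lines overlapped in both conditions. The log2 fold changes of 0.084 ± 0.12 (-0.17 to 0.34, limma adjusted p = 0.726) and -0.13 ± 0.12 (-0.39 to 0.13, adjusted p = 0.530) had opposite signs, and neither passed. AMT, which shares 353 bases with NICN1 on the same strand, varied between 0.170 and 1.66 FPKM over the 12 libraries. ENSG00000283189, which shares 6982 bases with NICN1 on the same strand, had no row, so reads given to NICN1 may belong to either gene.

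**Figure D3:**
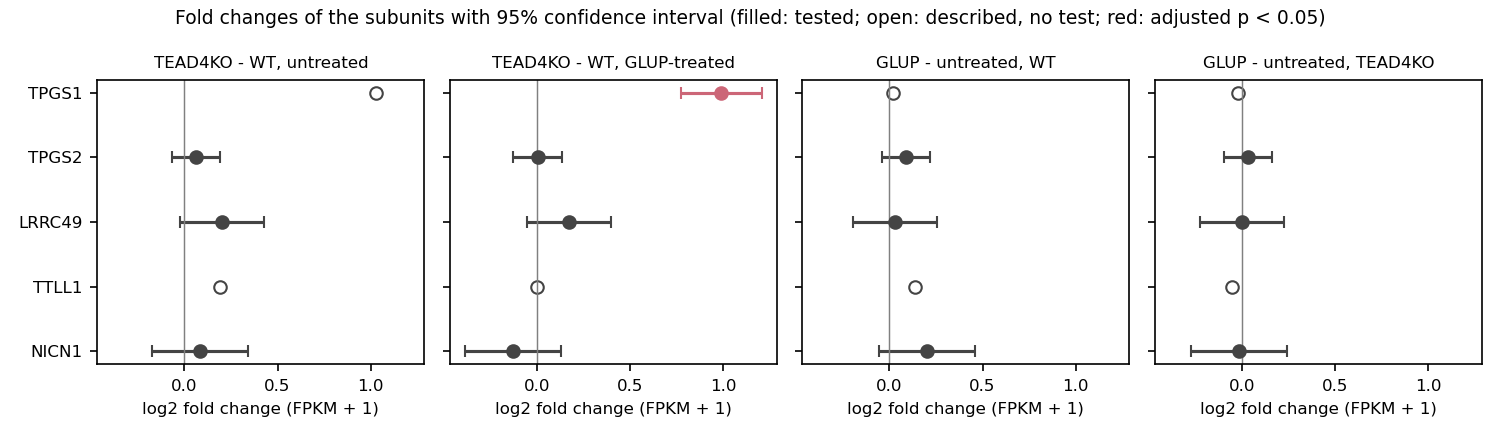
Log2 fold change (horizontal axes, log2(FPKM + 1) scale) of each subunit in 4 comparisons. Filled circles with bars are tested values with their 95% confidence interval, and open circles are TPGS1 where it is described and TTLL1, which was under the filter. Only TPGS1 in GLUP-treated cells (red, 0.99) had an adjusted p under 0.05 among the values tested.

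None of the 3 subunits tested for GLUP (TPGS2, LRRC49 and NICN1) passed the threshold in either line. The background was 1 gene called in WT (0.00891%) and 5 genes in TEAD4KO cells (0.0445%), so a missing call does not set them apart from other genes. In WT cells TPGS1 differed by 0.019 and in TEAD4KO cells by -0.019 on the log2 scale, given as descriptions because these comparisons contain the untreated libraries by which it was chosen. TPGS2 was higher in all 3 WT libraries with GLUP than in all 3 without (0.089, 95% confidence interval -0.041 to 0.22, limma adjusted p = 0.999), as 10.2% of the genes tested were. TTLL1 was also higher in all 3 (0.14, under the filter and not tested). LRRC49 had 0.030 in WT and 0.00081 in TEAD4KO cells, and NICN1 had 0.20 (-0.059 to 0.46) and -0.016, with limma adjusted p-values between 0.990 and 0.999. The unadjusted p was under 0.05 for 385 genes in WT and 716 in TEAD4KO cells, and for none of the 3 tested subunits other than TPGS1. The interaction of label and GLUP called 1 gene (0.00891%), which was no subunit. Its values were -0.058 for TPGS2, -0.029 for LRRC49 and -0.22 for NICN1 (-0.58 to 0.15 for the last), each with a limma adjusted p of 1.00, so that a difference in GLUP response between the lines was not detected.

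The other genes of tubulin modification were counted from lists written with earlier results of these data known. CSTPP1, a further partner of the complex, was at 9.57, 10.2 and 10.5 FPKM in untreated WT and at 13.6, 11.1 and 11.7 FPKM in untreated TEAD4KO cells, without overlap, an upward pattern that 18.3% of the genes tested had. Its log2 fold change was 0.24 ± 0.10 untreated (limma adjusted p = 0.197) and 0.12 ± 0.10 with GLUP (adjusted p = 0.523), and neither passed. In the list of 9 genes made up of CSTPP1, which is no glutamylase, and the glutamylases, 4 were tested, and 0 rose and 0 fell in both TEAD4KO comparisons. The median log2 fold change of these 4, CSTPP1 included, was -0.13 in both, against 0.023 over all genes tested untreated and -0.0039 with GLUP. Of the 6 deglutamylase genes 2 were tested, the erasers AGTPBP1 and AGBL5, and none was called. TTLL4, TTLL5 and TTLL7, glutamylases that need no such complex, differed by -0.14, -0.24 and -0.13 in untreated cells and did not pass. With GLUP they differed by -0.25, -0.17 and -0.099 and did not pass either. TTLL5 was lower without overlap in both conditions and TTLL7 in untreated cells. Of the genes tested, 7.47% had this downward pattern untreated and 12.9% with GLUP. These differences and the medians are those before the correction for GC content and length.

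Over all these lists 48 genes were tested, of which 1 was called in untreated and 3 in GLUP-treated cells, beside 5.42% and 5.84% called over all genes. Counts this small do not set the lists apart from all genes. The 4 calls are given by name. TTLL3, a glycylase that adds glycine to tubulin, was at 12.1, 15.4 and 18.8 FPKM in WT and 8.05, 6.88 and 11.97 FPKM in TEAD4KO cells with GLUP. It fell by 0.73 on the log2 scale (SE 0.20, limma adjusted p = 0.0492) as 1 of 3 tested genes of its list of 5. ATAT1, the acetyltransferase of alpha-tubulin, was at 4.41, 4.64 and 5.60 FPKM in WT and 2.18, 2.14 and 3.56 FPKM in TEAD4KO cells with GLUP. It fell by 0.72 (SE 0.15, adjusted p = 0.0163) as 1 of the 8 genes tested for tyrosine and acetyl modification. In untreated cells TTLL3 and ATAT1 differed by -0.20 and -0.031 (adjusted p = 0.604 and 0.933), and the interaction for neither was called.

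TUBA1C, an alpha-tubulin that such enzymes modify, was at 336, 348 and 338 FPKM in WT and 454, 435 and 380.0 FPKM in TEAD4KO cells with GLUP. It rose by 0.31 ± 0.076 (limma adjusted p = 0.0319) as 1 of 13 tubulins tested of 18. CEP20, a protein of centrioles and centriolar satellites, where subunits of the complex have been found, was at 19.1, 18.1 and 18.1 FPKM in untreated WT and 21.5, 21.5 and 23.5 FPKM in untreated TEAD4KO cells. It rose by 0.25 ± 0.067 (adjusted p = 0.0452) as 1 of 10 satellite genes tested, and 0 of the 8 severing genes tested was called. Each of the 4 calls was lost without some single libraries. Of the 12 fits that left out 1 library, 9 kept ATAT1, which was lost without WT GLUP replicate 16, TEAD4KO GLUP replicate 14 or TEAD4KO GLUP replicate 15 (limma adjusted p from 0.000425 to 0.0916 over all alternatives). TTLL3 was kept in 4 fits only, those without WT GLUP replicate 14, TEAD4KO untreated replicate 1, TEAD4KO untreated replicate 2 or TEAD4KO GLUP replicate 16 (0.00130 to 0.207). TUBA1C was kept in 5, those without WT untreated replicate 3, any 1 of the untreated TEAD4KO libraries or TEAD4KO GLUP replicate 16 (0.000401 to 0.140). CEP20 was kept in 3, those without TEAD4KO untreated replicate 1, TEAD4KO GLUP replicate 14 or TEAD4KO GLUP replicate 16 (0.0166 to 0.179). When GC content and length were corrected for, TTLL3 and ATAT1 were called (limma adjusted p = 0.0417 and 0.0166), whereas TUBA1C and CEP20 were not (0.0508 and 0.0954). None of the list genes was called in a GLUP comparison, and their untreated TEAD4KO differences ran from -0.35 to 0.27.

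**Figure D4:**
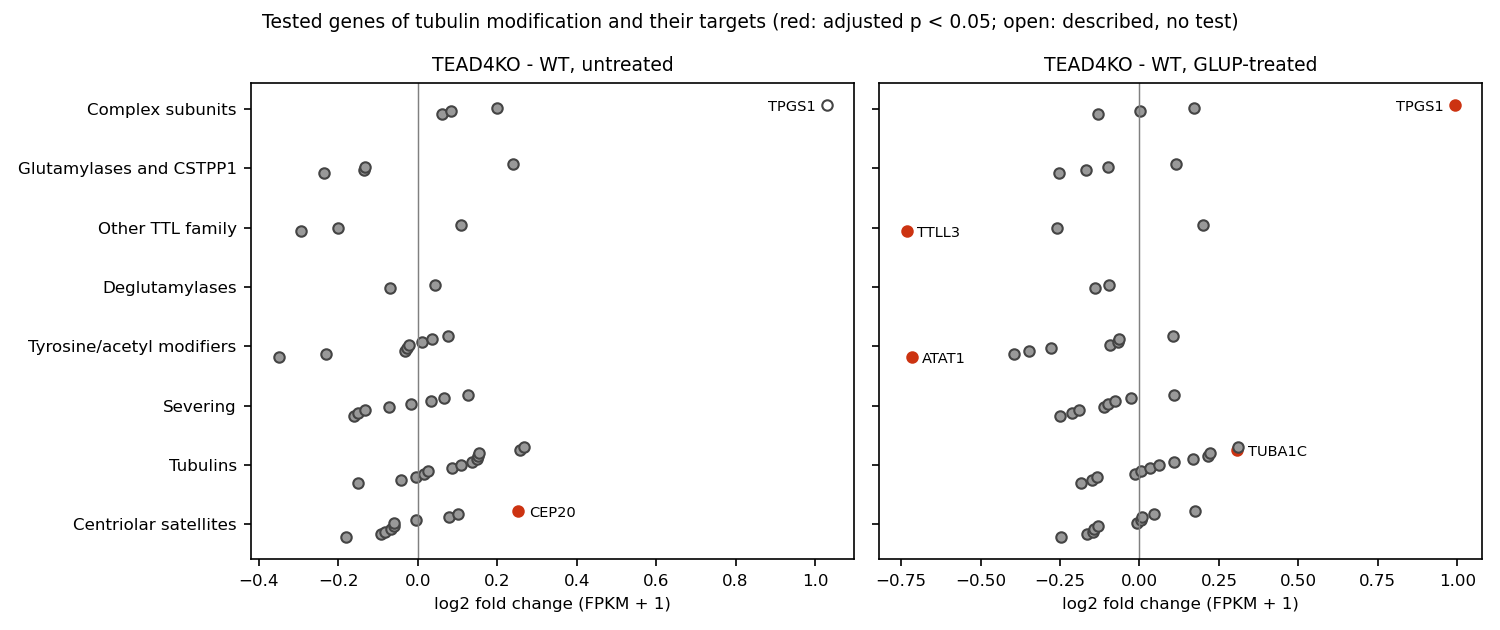
Log2 fold change of TEAD4KO against WT (horizontal axes, a separate scale for each panel) in untreated (left) and GLUP-treated cells (right) for the tested genes of each list (rows, 1 circle per gene, spread vertically only for sight). Red circles had a limma adjusted p under 0.05, and the open circle is TPGS1 where it is described. TPGS1 lies at 1.03 and 0.99, away from the other genes, which run from -0.73 to 0.31.

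The 5 tested genes whose pattern over the 12 libraries was most like that of TPGS1 were EMC6, C1orf122, H2AC25, RPRML and NDUFAF8. Likeness was the root-mean-square difference between log2(FPKM + 1) values centred on each gene's own mean. It was 0.137 for EMC6, a subunit of the complex that inserts membrane proteins in the endoplasmic reticulum, 0.143 for C1orf122, 0.153 for the histone gene H2AC25, 0.162 for RPRML and 0.170 for NDUFAF8, an assembly factor of mitochondrial complex I. The median over all genes tested was 0.528, and the other subunits lay near it, with 0.427 for LRRC49, 0.510 for TPGS2 and 0.556 for NICN1. This measure covers the untreated libraries by which TPGS1 was chosen, so it is a description. The genes nearest to TPGS1 must also be higher in TEAD4KO libraries, and genes level between the lines must lie further off. The 5 genes have transcripts of 510 to 1329 bases with 57.2% to 69.4% G and C. Their untreated TEAD4KO differences of 0.78 to 1.07 came to between 0.39 and 0.86 on the corrected scale.

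The neighbourhood of TPGS1 on chromosome 19 was also described. By the rule of 5 tested protein-coding genes on either side, 1 was found between TPGS1 and the end of the chromosome and 5 on the other side. Of these 6 genes, 2 were called in each condition, against 5.42% and 5.84% of all genes, and the other 4 were not called, with log2 fold changes of -0.028 to 0.25. The ubiquitin-conjugating enzyme gene CDC34, whose start lies 24.3 kb from that of TPGS1, had 0.24 ± 0.063 untreated (limma adjusted p = 0.0399) and 0.26 ± 0.063 with GLUP (adjusted p = 0.0308). POLRMT, the mitochondrial RNA polymerase gene at 126 kb, had 0.25 ± 0.065 (adjusted p = 0.0421) and 0.29 ± 0.065 (adjusted p = 0.0212). Neither was called on the corrected scale, where CDC34 had -0.036 and 0.027 and POLRMT 0.084 and 0.19. There HCN2, a channel gene not called before the correction, was lower in untreated TEAD4KO cells (-0.33, limma adjusted p = 0.0326) and had -0.22 with GLUP (adjusted p = 0.0755). Each untreated call was kept in 3 of the 12 fits without 1 library, for CDC34 in those without a TEAD4KO library with GLUP and for POLRMT in those without TEAD4KO untreated replicate 2 or TEAD4KO GLUP replicate 14 or 16. Each GLUP call was kept in 7, and both were lost without any 1 WT library with GLUP. Within 500 kb, 16 tested genes had a median of 0.20 untreated and 0.14 with GLUP, beside 0.023 and -0.0039 over all genes tested, and 5 and 4 of the 16 were called. The largest untreated value among them was 0.74, for CFD, the complement factor D gene. All these values within 500 kb are those before the correction for GC content and length.

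**Figure D5:**
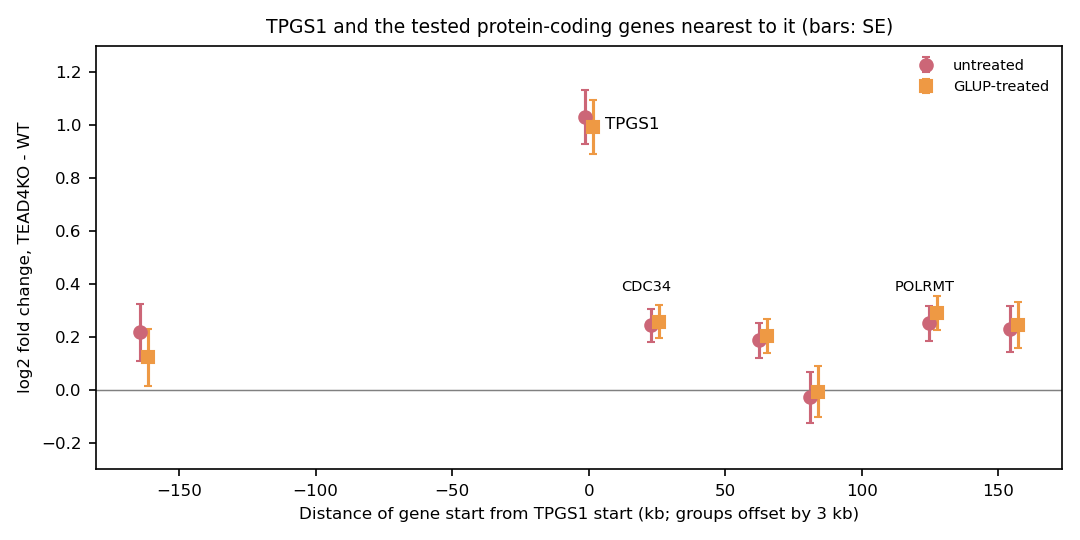
Log2 fold change of TEAD4KO against WT (vertical axis) with its SE for TPGS1 and the nearest tested protein-coding genes, against the distance of each start from that of TPGS1 (horizontal axis, kb), in untreated (circles) and GLUP-treated cells (squares). TPGS1 stands at 1.03 and 0.99, and its neighbours lie between -0.028 and 0.29.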

How the data were processed

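RNA from HGC-27 cells was sequenced in 12 libraries. The authors processed the reads on a cloud platform and deposited a table of FPKM values with Ensembl genes as rows and single libraries as columns, without pooling. The submitters' processing notes name HISAT2, Cufflinks, RSEM and hg19 without versions or roles. Groups and replicate numbers come from the titles, and all columns were matched to samples.

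The 11225 rows whose mean reached 1 FPKM were taken to the log2(FPKM + 1) scale. One model of 4 groups was fitted to all 12 libraries with limma 3.58.1 in R 4.3.3 (eBayes with trend, no covariates). Tests were two-sided, the Benjamini-Hochberg adjustment ran over all rows of a comparison (5 comparisons), and a call was an adjusted p under 0.05. FPKM keeps no depth, and differences in GC content or fragment length between libraries stay in it, so a correction (splines with 5 degrees of freedom for GC content and log2 length, known for 98.7% of tested rows) was run as an alternative, together with other pseudocounts, filters, scalings and weights, a replicate block, fits of only the groups compared and fits without each library. The fit was also run on simulated data with independent noise for each gene. These held neither the length trend nor the uneven TEAD4KO libraries seen here, so they say nothing on how the fit handles those. Leaving out 2 TEAD4KO libraries together was added after seeing the data.

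GENCODE release 44 on GRCh37 gave symbols, positions and, from 1 transcript per gene (the canonical one where marked, otherwise the longest), length and GC content, and promoters from RefSeq on GRCh38.p14. The members and lists were chosen with earlier results of these data known. Named were the 5 members, TEAD4, the called genes of each list (up to 3 each way), the 5 tested genes most like TPGS1, and the called genes among the 5 nearest tested protein-coding genes on either side. CSTPP1, TTLL4, TTLL5, TTLL7, CFD and HCN2 were named after their values were seen. AGBL1, TUBB8 and PECAM1 of the lists matched no row.

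Libraries with the same number were compared by the correlation of their deviations from the group means between the lines. For GLUP libraries 14, 15 and 16 it was 0.106, 0.152 and 0.336, which was taken as pairing from the numbers in the titles, and for untreated libraries 1, 2 and 3 it was -0.057, 0.20 and -0.015, which was not. These values cover only pairs with the same number, and untreated pair 2 lay above GLUP pairs 14 and 15, so the pairing is uncertain. The main model held no block in either condition.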

Additional observations from a re-analysis of the deposited data

How the results depend on the processing

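The number of subunits called apart from TPGS1 was 0 in all 5 comparisons and in each alternative run (limma). The TPGS1 call in GLUP-treated cells was kept in each alternative, with log2 fold changes of 0.90 to 1.08 in the fits without 1 library. With the replicate block its adjusted p was 0.000322, and the block changed no subunit's call. For untreated libraries, whose numbers were not taken as pairs, the block gave adjusted p-values of 0.0549 for POLRMT and 0.0649 for CEP20. With the block and the correction for GC content and length together it was 0.0126 at a log2 fold change of 0.52. The untreated TPGS1 difference was 0.98 to 1.12 without 1 library and came to 0.48 under the correction, with and without the block. No GLUP comparison within a line could be blocked, because treated and untreated libraries share no number.

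Of the subunit values, only ones near 0, none of them called, changed sign. The described TPGS1 values were among them, with -0.043 to 0.081 for GLUP in WT, -0.11 to 0.11 for GLUP in TEAD4KO and -0.13 to 0.048 in the interaction over all alternatives. Under the GC and length correction LRRC49 was -0.011 for GLUP in WT and -0.022 for GLUP in TEAD4KO, and NICN1 was 0.014 for GLUP in TEAD4KO. Under quantile normalization NICN1 was 0.0026 for GLUP in TEAD4KO, TPGS2 was -0.048 for TEAD4KO against WT with GLUP, and LRRC49 was 0.0015 in the interaction, where median-ratio scaling gave 0.0080. Without TEAD4KO untreated replicate 1 and TEAD4KO GLUP replicate 16 together, NICN1 was 0.034 for GLUP in TEAD4KO and -0.0079 for untreated TEAD4KO against WT, TPGS2 was -0.012 for TEAD4KO against WT with GLUP and LRRC49 was 0.014 in the interaction. Leaving out 1 library gave LRRC49 from -0.041 to 0.093 for GLUP in WT, from -0.086 to 0.11 for GLUP in TEAD4KO and from -0.12 to 0.085 in the interaction. It gave NICN1 from -0.085 to 0.076 for GLUP in TEAD4KO and from -0.0079 to 0.15 for untreated TEAD4KO against WT, and TPGS2 from -0.022 to 0.043 for TEAD4KO against WT with GLUP. The cause was not tested.

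Over all genes the count called moved more. It ran from 119 without WT untreated replicate 3 to 2228 without these 2 libraries in untreated cells, and from 201 without WT GLUP replicate 16 to 3110 without the same 2 libraries with GLUP, against 608 and 656. The correction gave 196 and 426, array weights 2487 with GLUP, and the replicate block 849 and 1064. The untreated calls split into 552 higher and 56 lower, into 282 and 117 after median-ratio scaling, 357 and 246 after quantile normalization and 124 and 72 after the correction. With GLUP the split was 551 and 105, and 510 and 299 after quantile normalization and 290 and 136 after the correction. For GLUP in WT the count ran from 0 to 61 and in TEAD4KO from 1 to 7. No scaling moved the median of all genes by over 0.1.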
